A study of Mus musculus with 8 samples.

Results

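The 34 genes described here cover glucose uptake, the enzymes of glycolysis, the fate of pyruvate and lactate, and the cell's response to low oxygen. They were taken by mouse gene symbol from a table of raw read counts with 55414 gene rows, and all 34 symbols were matched by Ensembl ID. The counts come from RNA-seq of spleen cells of WT C57BL/6J mice that were sorted by flow cytometry as red pulp macrophages. Spleens were taken 2 h after surgery. In the CLP group (4 libraries) the mice had cecal ligation and puncture, a model of sepsis in which gut bacteria leak into the abdomen, and in the Sham group (4 libraries) they had sham surgery. Red pulp macrophages are resident in the spleen, where they engulf old erythrocytes and return the iron to the blood. All mice of both groups were wild type, housed under specific pathogen-free conditions on a chow diet. The sources used here do not give the age or sex of the mice, the sorting gate or the number of mice behind each library. P-values therefore reflect the variation among these libraries only, part of which may be technical.

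Glucose enters a cell through transporters of the GLUT family, is trapped by hexokinase as glucose phosphate, is committed to glycolysis by phosphofructokinase and ends as pyruvate, which either enters the mitochondrion or is turned into lactate and exported. Hypoxia-inducible factor (HIF) is a transcription factor whose alpha subunit is marked for destruction by oxygen-dependent prolyl hydroxylases. When the alpha subunit accumulates it pairs with ARNT, binds DNA at hypoxia response elements and raises many genes of glucose uptake and glycolysis. Macrophages that meet bacterial products are known to raise Hif1a and glycolysis.

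The 4 largest increases after CLP were of the glucose transporter genes Slc2a6 and Slc2a1, the hexokinase gene Hk2 and Pfkfb3. Slc2a1 averaged 103 ± 7.65 CPM (counts per 1000000 reads, scaled by TMM) in CLP libraries and 27.1 ± 5.53 CPM in Sham libraries (SD, n = 4 each), and Hk2 averaged 194 ± 41.2 CPM in CLP and 49.3 ± 3.70 CPM in Sham. Pfkfb3, which makes an activator of phosphofructokinase, averaged 290 ± 40.3 CPM in CLP and 87.9 ± 6.69 CPM in Sham, while its relative Pfkfb4 averaged 23.4 ± 4.98 CPM in CLP and 38.3 ± 4.05 CPM in Sham. Of the 34 genes 32 had enough reads to be tested, and of these 15 rose, 2 fell and 15 did not pass (edgeR's quasi-likelihood test, Benjamini-Hochberg adjusted p below 0.05 over all 14004 genes tested). That is 46.9% higher and 6.25% lower, where among all genes tested 19.8% were higher and 23.5% lower, or 43.3% in either direction. In 13 of the 32 the lowest CLP library lay above the highest Sham library, and in 2 the highest CLP library lay below the lowest Sham library, against 18.7% and 22.8% of all genes tested. Changes of at least 2-fold that passed the test were seen in 7 of the 32, all increases, where 14.7% of all genes tested changed by that much in either direction. The median log2 fold change was 0.24 over the 32 and -0.05 over all genes tested. The sorted cells are a bulk sample, in which fewer cells of a type and less RNA per cell cannot be told apart.

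How much the groups differed depended on the scaling for small changes. When libraries were scaled by their totals, without TMM factors, the median gene moved by -0.32 (log2), and 9.18% of all genes were then higher and 46% lower, 55.1% in all. Under that scaling 9 of the 32 were higher and 8 lower, with a median log2 fold change of -0.08 where the median of all genes was -0.37. Of the 17 genes that passed, 10 kept their call and direction under all 14 alternatives tried: Slc2a1, Slc2a6, Hk2, Pfkp, Pfkfb3, Hif1a, Egln2, Vegfa and Ero1a higher, and Pfkfb4 lower.

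Total counts were 17333748 to 21409078 in the CLP libraries and 15392992 to 25665633 in the Sham libraries, so that 1 CPM stands for 15.1 to 27.6 reads. The defining markers of red pulp macrophages were abundant in both groups: the 10 markers summed to 40238 to 45654 CPM in CLP and 34097 to 42274 CPM in Sham, with 5 higher and 1 lower after CLP. The lower gene was Slc40a1 (log2 fold change -0.40). Scaled by library totals, 1 of the 10 was higher and 3 were lower. Vcam1 averaged 16138 CPM in CLP and 12611 CPM in Sham, Adgre1 averaged 2271 CPM in CLP and 1671 CPM in Sham, and Spic, the factor that defines these macrophages, averaged 2213 CPM in CLP and 1186 CPM in Sham. Of 11 neutrophil markers 4 could be tested and 3 rose, with sums of 102 to 175 CPM in CLP and 77.5 to 93.1 CPM in Sham, most of it Csf3r, while Ly6g was at 0.0641 CPM in 1 CLP library and at 0 in the other libraries. Of 8 platelet markers 5 could be tested and 3 rose, with sums of 19.4 to 24.2 CPM in CLP and 6.98 to 9.02 CPM in Sham. The 10 erythroid markers matched summed to 773 to 1306 CPM in CLP and 346 to 1693 CPM in Sham, with 3 of 9 tested higher and 1 lower. Sums of B cell, monocyte and endothelial or stromal markers overlapped between the groups. Those of T and NK cell markers (106 to 128 CPM in CLP, 98.7 to 103 CPM in Sham) and dendritic cell markers (58.8 to 75.1 CPM in CLP, 36.1 to 53.8 CPM in Sham) did not. Most of the T and NK sum was Cd4, which by itself overlapped, and of 9 markers tested 0 were higher and 1 lower. Of 6 dendritic cell markers tested 2 were higher and 1 lower. The part of these other cells in the fold changes below was not tested. Libraries also differed within groups: CLP replicate 3 was the lowest of the CLP libraries for 15 of the 34 genes, and Sham replicate 1 was the highest of the Sham libraries for 20 and Sham replicate 4 the lowest for 18.

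To show the regulatory sequence beside the values, the 250 bases before the start site are given for Slc2a1, Hk2 and Pfkfb3 (1 of its 2 windows), which rose, and for Pfkfb4, which fell. They are read 5′ to 3′ on the gene's strand from RefSeq on GRCm38.p6, a build older than the one the reads were processed on. Capitals mark ACGTG or GCGTG, the core of the hypoxia response element, on either strand (CACGT and CACGC on the other strand). The regions are chr4:119108495-119108744 (+) for Slc2a1, chr6:82774455-82774704 (-) for Hk2, chr2:11502091-11502340 (-) for Pfkfb3 and chr9:108991652-108991901 (+) for Pfkfb4.
Slc2a1: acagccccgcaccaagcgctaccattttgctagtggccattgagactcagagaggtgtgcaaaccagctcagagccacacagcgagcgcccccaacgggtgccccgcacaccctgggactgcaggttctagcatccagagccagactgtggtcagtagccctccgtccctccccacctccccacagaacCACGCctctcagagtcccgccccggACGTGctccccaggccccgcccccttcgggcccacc
Hk2: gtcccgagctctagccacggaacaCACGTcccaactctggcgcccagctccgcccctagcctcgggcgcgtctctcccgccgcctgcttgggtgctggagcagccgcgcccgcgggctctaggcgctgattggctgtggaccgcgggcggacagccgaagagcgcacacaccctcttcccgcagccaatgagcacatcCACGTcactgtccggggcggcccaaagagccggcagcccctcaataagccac
Pfkfb3: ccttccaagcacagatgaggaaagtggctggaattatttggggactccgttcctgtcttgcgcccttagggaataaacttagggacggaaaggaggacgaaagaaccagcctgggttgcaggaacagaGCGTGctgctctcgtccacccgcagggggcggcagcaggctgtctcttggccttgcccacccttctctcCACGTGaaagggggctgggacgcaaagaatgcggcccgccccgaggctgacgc
Pfkfb4: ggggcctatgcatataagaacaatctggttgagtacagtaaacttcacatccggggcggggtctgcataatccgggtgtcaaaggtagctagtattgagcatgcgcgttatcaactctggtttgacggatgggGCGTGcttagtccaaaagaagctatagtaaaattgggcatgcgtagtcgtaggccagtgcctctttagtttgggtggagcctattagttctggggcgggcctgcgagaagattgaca
Slc2a1 had the core at 61 and 36 bases before the start site and Hk2 at 226 and 52 bases. Pfkfb3 had it at 122 bases and, as the palindrome CACGTG read from both strands, at 53 and 52 bases, and Pfkfb4 had it at 117 bases. Promoter windows of 300 bases (250 before to 50 after the start) were found for 31 of the 34 genes, and not for Bnip3l, Slc2a3 and Epas1. At least 1 window of the gene held the core in 29 of the 31 (93.5%), and in 66.8% of 9788 tested genes with a window. It was there in 14 of 14 genes that rose, in the 1 that fell, and in 12 of 14 that did not pass. GC content differs too, with a median of 64.3% in the windows of these genes and 60.3% in those of tested genes. The core was held by 68.5% of windows of tested genes with a GC content of 56.7% to 67.3%. It was held by 37 of the 45 windows of these genes (82.2%), which were not limited to that range, so the 2 shares are not fully matched. CACGTG, which contains the core and is also the E-box read by MYC and other factors, was in 7 of the 31 genes (22.6%) and in 11.7% of tested genes. These are letter matches, not shown to be bound sites.

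**Figure D1:**
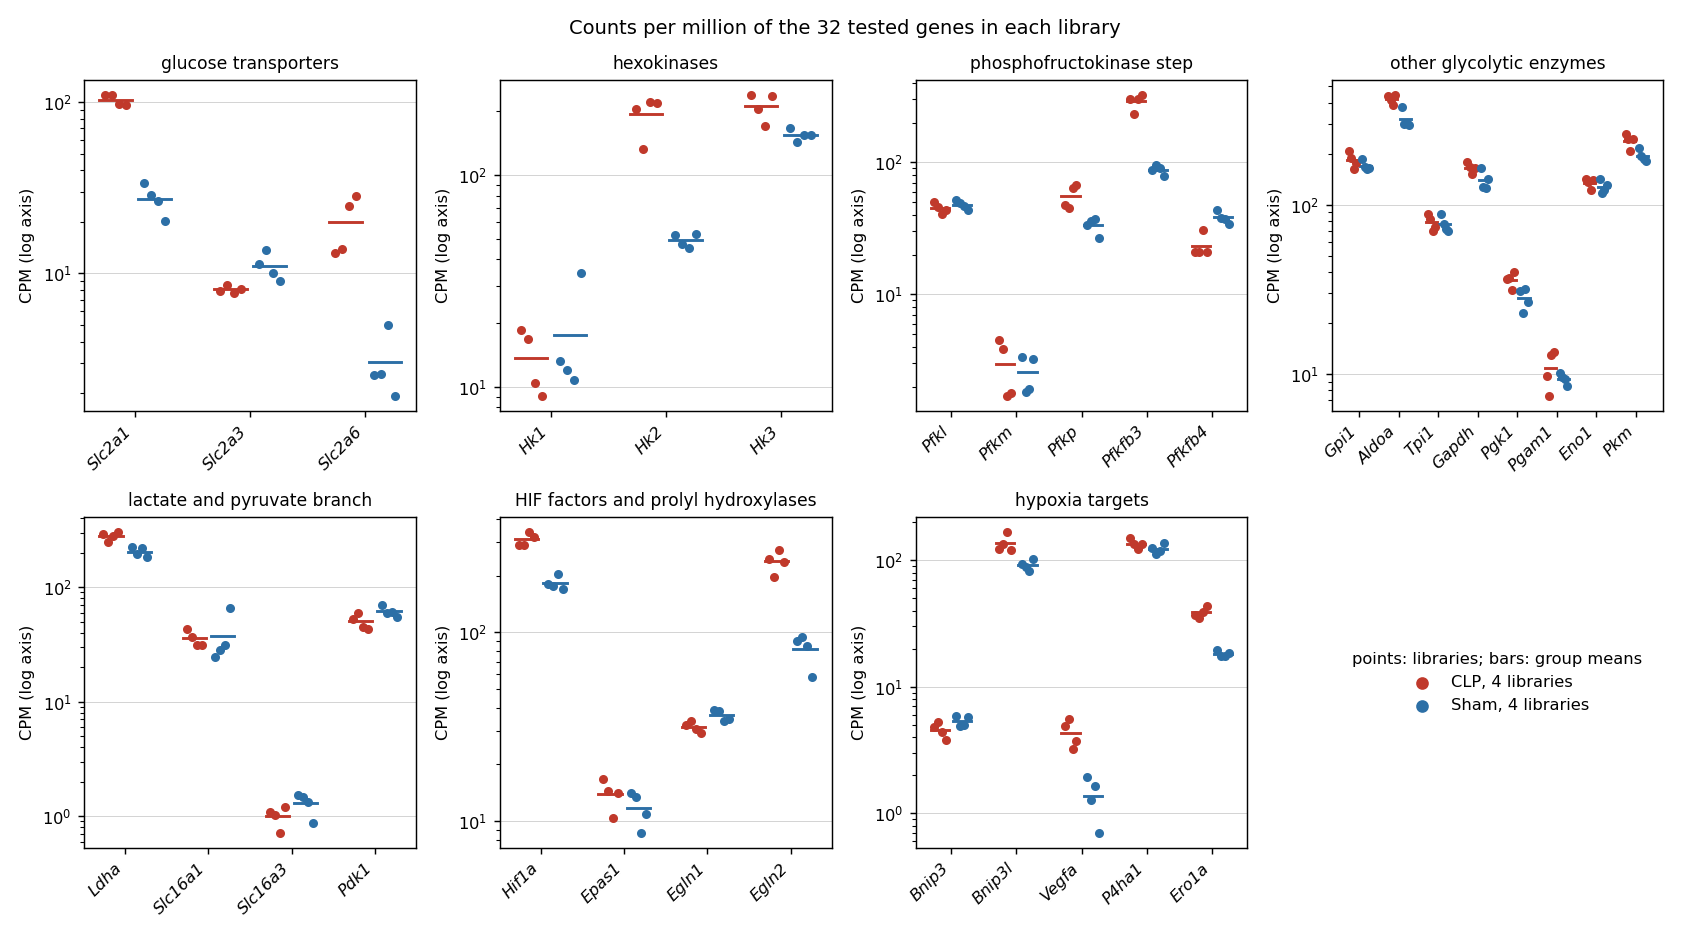
CPM (log axis) of the 32 tested genes in each of 4 CLP (red, left of each pair) and 4 Sham (blue, right) libraries, grouped by role; points are libraries and bars are group means. Slc2a1, Hk2, Pfkfb3, Hif1a and Egln2 separate fully, with all 4 CLP libraries above the Sham libraries, while Pfkfb4 lies below and most enzymes of the lower pathway lie close together.

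Of the 3 glucose transporter genes 2 rose and 1 fell. Slc2a1, which encodes GLUT1, the carrier of basal glucose uptake, had 110, 110, 96.7 and 96.3 CPM in the CLP libraries, against 33.5, 28.5, 26.4 and 20.1 CPM in the Sham libraries. The lowest CLP library was far above the highest Sham library, and the log2 fold change was 1.92 (SE 0.14, edgeR adjusted p = 2.75e-06), or 3.8-fold. Slc2a6, which encodes GLUT6, a transporter found on lysosomes of macrophages, had 13.1, 13.9, 24.6 and 28.1 CPM in CLP and 2.57, 2.59, 5.01 and 1.93 CPM in Sham. Its groups did not overlap although the CLP libraries spread widely among themselves, and its log2 fold change of 2.74 (SE 0.36, edgeR adjusted p = 0.000285) was the highest of the 32. Slc2a3, which encodes the high-affinity transporter GLUT3, went the other way, with 7.88, 8.59, 7.73 and 8.14 CPM in CLP and 11.3, 13.7, 10.0 and 9.00 CPM in Sham. The log2 fold change of -0.45 (SE 0.15, edgeR adjusted p = 0.031) rested on a narrow gap. It did not pass without CLP replicate 1, 3 or 4 or without Sham replicate 1, 2 or 3, with a highest adjusted p of 0.149 without Sham replicate 2.

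Within a library the ratio of 2 genes' counts does not depend on the scaling, and 10 such pairs were compared. Slc2a3 had 0.0722 to 0.0849 counts per count of Slc2a1 in CLP libraries and 0.338 to 0.482 in Sham libraries, a difference of -2.37 on the log2 scale. The groups did not overlap, which gives an exact two-sided permutation p of 0.0286, the smallest that 70 assignments allow, or 0.0571 adjusted over the 10 pairs, so this pair missed 0.05 after adjustment, as did all other pairs. Levels per kilobase use the merged length of all annotated exons of a gene, which can exceed that of the transcripts present. Per kilobase of exon, Slc2a1 held 80.1% ± 6.26 of the summed level of the 3 genes in CLP and 75.7% ± 3.41 in Sham (SD, n = 4 each), and Slc2a3 held 3.04% ± 0.124 in CLP and 15% ± 2.22 in Sham. Summed, the 3 transporters had 129 to 133 CPM in CLP libraries and 31.1 to 47.4 CPM in Sham libraries.

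Among the hexokinases, Hk2 and Hk3 rose and Hk1 did not pass. Hk2, the inducible form that binds mitochondria, had 204, 133, 220 and 219 CPM in CLP and 52.1, 47.1, 45.2 and 52.8 CPM in Sham, with a log2 fold change of 1.97 (SE 0.15, edgeR adjusted p = 7.71e-06). The CLP libraries were all well above the Sham libraries, with CLP replicate 2 the lowest of them. Hk3, the form typical of myeloid cells, had 239, 204, 171 and 236 CPM in CLP and 167, 143, 154 and 155 CPM in Sham, a log2 fold change of 0.46 (SE 0.11, edgeR adjusted p = 0.00459). The gap between the groups was small, and with library totals the log2 fold change was 0.14 and did not pass (adjusted p = 0.242). Hk3 also shares 34 exon bases with Unc5a on the opposite strand, a gene with 30.5% as many reads, and the strand setting of the counting is not known.

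Hk1, the form most cells use at rest, had 18.6, 16.9, 10.4 and 9.07 CPM in CLP and 13.2, 12.0, 10.8 and 34.4 CPM in Sham (log2 fold change -0.36, SE 0.42, edgeR adjusted p = 0.529). Sham replicate 4 was far above the other libraries, and without it the log2 fold change was 0.21 (adjusted p = 0.522). Hk2 had 7.87 to 24.0 counts per count of Hk1 in CLP libraries and 1.53 to 4.16 in Sham libraries, a difference of 2.20 on the log2 scale (exact two-sided permutation p = 0.0286, adjusted 0.0571). For Hk3 over Hk1 the groups overlapped (12.1 to 25.9 in CLP, 4.50 to 14.2 in Sham, exact permutation p = 0.171). Per kilobase, Hk2 made up 35.3% ± 6.46 of hexokinase mRNA in CLP and 15.8% ± 0.641 in Sham, and Hk3 62.9% ± 6.01 in CLP and 80.3% ± 2.61 in Sham (SD, n = 4 each). Hk3 was thus the most abundant of the 3 per length of merged exons in all 8 libraries. The hexokinase sum was 354 to 464 CPM in CLP libraries and 202 to 242 CPM in Sham libraries.

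At the phosphofructokinase step, Pfkfb3 and Pfkp rose, Pfkfb4 fell, and Pfkl and Pfkm did not pass. Pfkfb3 had 301, 232, 303 and 325 CPM in CLP and 88.2, 94.7, 90.0 and 78.8 CPM in Sham (log2 fold change 1.72, SE 0.11, edgeR adjusted p = 1.41e-06), the smallest adjusted p of the 32. Pfkfb4, which makes and removes the same activator, had 21, 20.9, 30.9 and 20.8 CPM in CLP and 43.9, 38, 37 and 34.2 CPM in Sham (log2 fold change -0.71, SE 0.14, edgeR adjusted p = 0.00174). Both separated the groups, in opposite directions, and their promoter stretches above each hold the hypoxia response core. Pfkfb3 had 9.81 to 15.6 counts per count of Pfkfb4 in CLP and 2.01 to 2.49 in Sham, a difference of 2.44 on the log2 scale, the largest of the 10 pairs (exact two-sided permutation p = 0.0286, adjusted 0.0571). With each library left out in turn, that difference lay between 2.33 and 2.56. Per kilobase, Pfkfb4 held 11.2% ± 2.15 of their summed level in CLP and 40.3% ± 2.33 in Sham (SD, n = 4 each).

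Of the 3 subunits of phosphofructokinase itself, only Pfkp, the platelet-type subunit, passed with TMM scaling, and Pfkl passed as lower with library totals. It had 47.7, 45.2, 63.6 and 67.6 CPM in CLP and 33.3, 35.8, 37.3 and 26.8 CPM in Sham (log2 fold change 0.75, SE 0.15, edgeR adjusted p = 0.00206). All CLP libraries were above the Sham libraries, with CLP replicates 3 and 4 higher than replicates 1 and 2. Pfkl, the liver-type subunit, had 40.8 to 50 CPM in CLP and 43.3 to 51.6 CPM in Sham (log2 fold change -0.08, edgeR adjusted p = 0.506, and -0.39 with library totals, where its adjusted p was 0.0021). Pfkm, the muscle-type subunit, was low, at 1.70 to 4.48 CPM in CLP and 1.81 to 3.33 CPM in Sham (log2 fold change 0.19, edgeR adjusted p = 0.702, and -0.13 with library totals), and its value is uncertain because it shares 18 exon bases with Senp1 on the opposite strand, a gene with many more reads. Pfkm also shares 341 exon bases with Gm26513 on the same strand, which has 23.1% as many reads. Pfkp had 0.953 to 1.56 counts per count of Pfkl in CLP and 0.619 to 0.794 in Sham, a difference of 0.82 on the log2 scale (exact two-sided permutation p = 0.0286, adjusted 0.0571). Per kilobase of merged exons Pfkl remained the larger, at 57.2% ± 3.79 of the 3 subunits in CLP and 68.7% ± 0.772 in Sham. This rank rests on the lengths used, 6675 bases for Pfkl and 13401 for Pfkp. Before any allowance for length, Pfkp averaged 56 CPM and Pfkl 45.2 CPM in CLP, against 33.3 and 47.7 CPM in Sham. Pfkp shares 748 exon bases with Pitrm1 on the opposite strand, which has 118% as many reads. The platelet marker sums given above separated the groups too, and their part in its change was not tested.

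**Figure D2:**
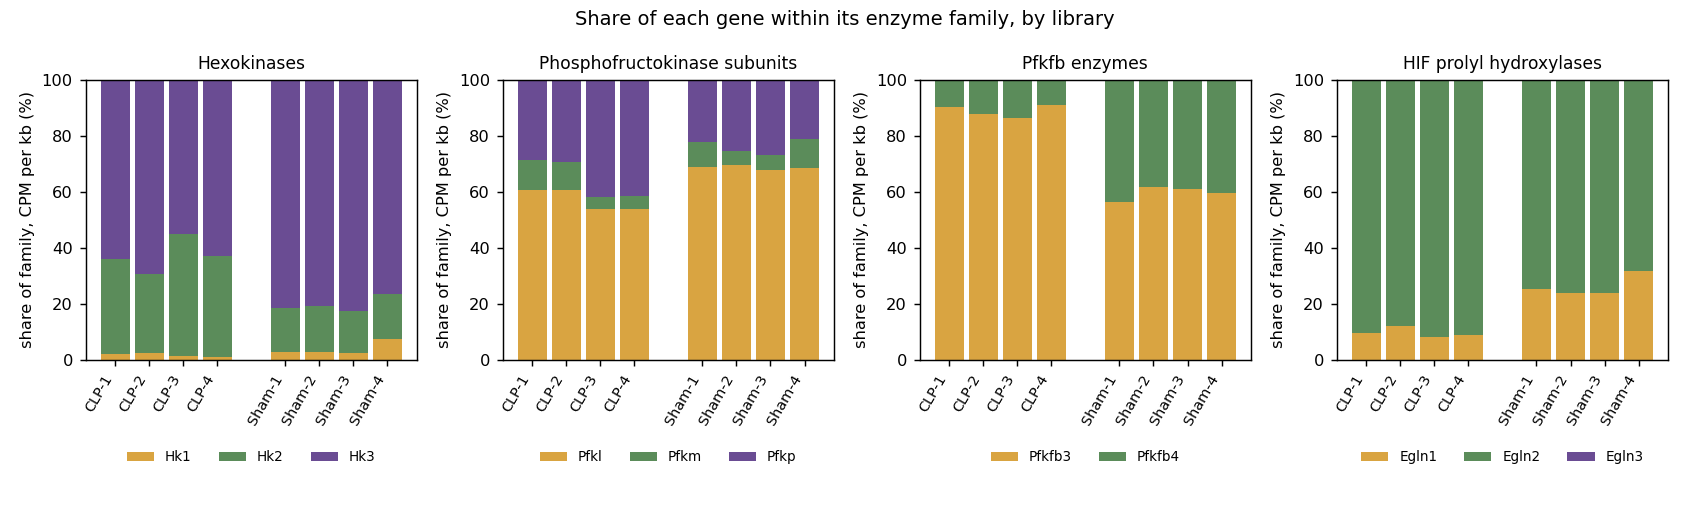
Share (%) of each gene in the summed CPM per kilobase of its family, in each CLP library (left) and each Sham library (right), for hexokinases, phosphofructokinase subunits, the Pfkfb enzymes and the HIF prolyl hydroxylases. The Hk2, Pfkp, Pfkfb3 and Egln2 segments are larger in every CLP library than in any Sham library.

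From glucose phosphate isomerase to pyruvate kinase, 3 of the 8 enzyme genes rose and 5 did not pass, with log2 fold changes of 0.03 to 0.40, while with library totals 0 were higher and 2, Tpi1 and Eno1, were lower. Aldoa, the aldolase of most tissues, had 438, 414, 389 and 446 CPM in CLP and 376, 299, 304 and 297 CPM in Sham. These groups did not overlap, with Sham replicate 1 closest to the CLP libraries (log2 fold change 0.40, SE 0.09, edgeR adjusted p = 0.00418; when scaled by library totals 0.09, adjusted p = 0.361). Pgk1 and Pkm, the kinases that make ATP in this pathway, passed with overlapping groups. Pgk1 averaged 36.1 ± 3.70 CPM in CLP and 28.1 ± 4.17 CPM in Sham (log2 fold change 0.36, SE 0.12, edgeR adjusted p = 0.0292, and 0.05 with library totals). Leaving out any of CLP replicates 1, 2 and 4 or of Sham replicates 2 and 4 ended its call, at an adjusted p of at most 0.0894. Pkm averaged 239 ± 23.1 CPM in CLP and 194 ± 15.8 CPM in Sham (log2 fold change 0.30, SE 0.09, edgeR adjusted p = 0.0183, and -0.02 with library totals). Without CLP replicate 1 its adjusted p was 0.0572.

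Gapdh, often used as a reference gene, averaged 165 ± 11.3 CPM in CLP and 139 ± 17.6 CPM in Sham and missed the threshold (log2 fold change 0.25, SE 0.09, edgeR adjusted p = 0.0543). It passed with the size factors of DESeq2 (0.28, adjusted p = 0.0329), without CLP replicate 3 (0.0287) and without Sham replicate 1 (0.00699), and was -0.07 with library totals. Gapdh shares 68 exon bases with Iffo1 on the opposite strand, which has 35.7% as many reads. Gpi1, Tpi1, Pgam1 and Eno1, which carry out the isomerase, triose isomerase, mutase and enolase steps, had log2 fold changes of 0.11, 0.03, 0.22 and 0.08 with none past the threshold, and with library totals all 4 were below 0. Processed copies that carry the name of Aldoa, Gapdh, Pgk1, Pgam1, Eno1, Ldha or Bnip3l held at most 0.813% as many counts as the gene. Copies under other names were not counted, and how reads matching both a gene and a copy were treated is not known. These counts therefore cannot show whether copies altered the gene levels. Over the 15 catalytic enzymes from hexokinase to lactate dehydrogenase, 7 rose and 8 did not pass, against 2 higher and 3 lower when scaled by library totals. Their counts summed to 1934 to 2214 CPM in CLP and 1498 to 1757 CPM in Sham.

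**Figure D3:**
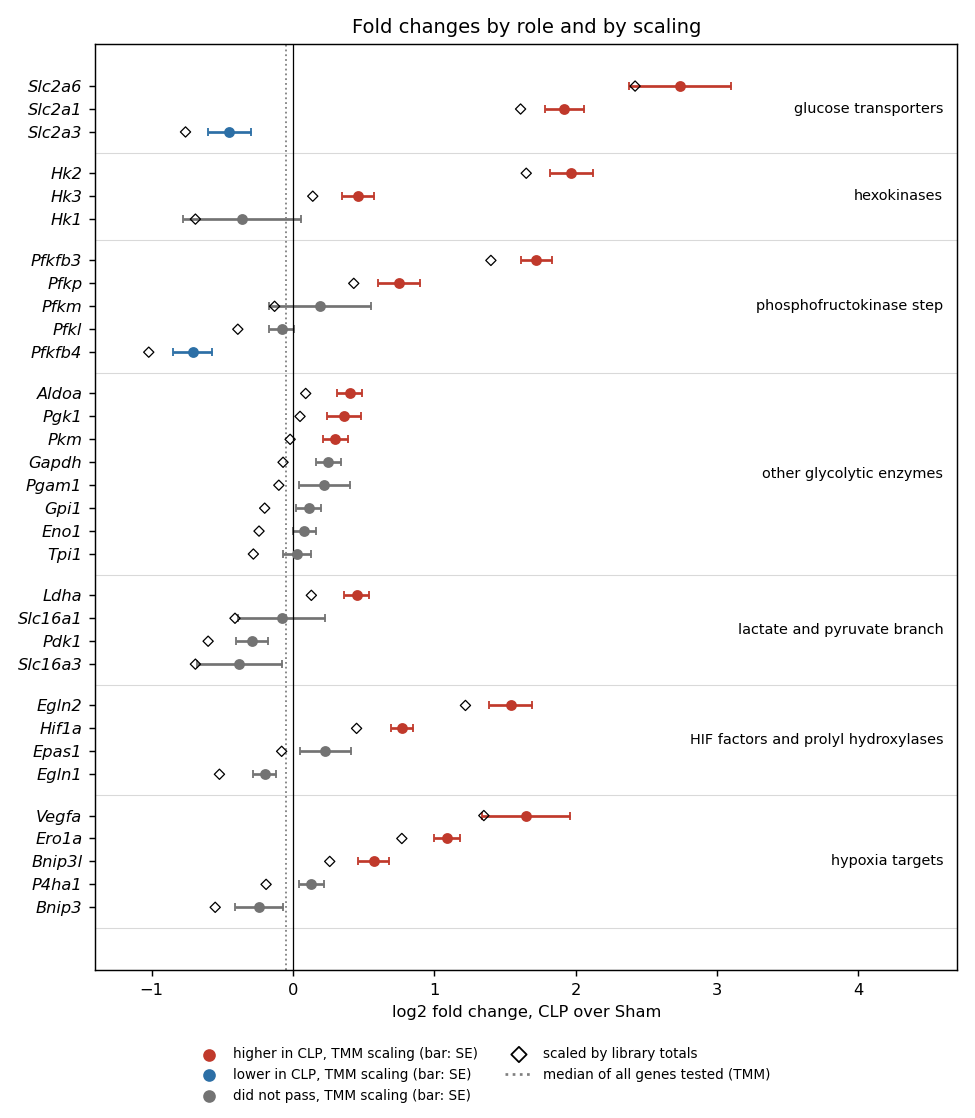
Log2 fold change (CLP over Sham) of the 32 tested genes by role, with SE as bars under TMM scaling (circles; red higher, blue lower, grey did not pass) and with library totals (open diamonds); the dotted line is the median of all genes tested, -0.05. Slc2a6, Hk2, Slc2a1, Pfkfb3, Vegfa and Egln2 stay above 1 under both scalings, whereas 4 of the 8 other glycolytic enzymes with TMM values from 0.03 to 0.22, along with Gapdh and Pkm, lie below 0 with library totals.

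At the pyruvate and lactate branch, 1 of 4 genes rose. Ldha, the lactate dehydrogenase subunit that favours lactate formation, had 289, 247, 280 and 305 CPM in CLP and 224, 194, 221 and 182 CPM in Sham. Every CLP library exceeded every Sham library (log2 fold change 0.45, SE 0.09, edgeR adjusted p = 0.0022), and with library totals the change was 0.13 (adjusted p = 0.17). Pdk1, a kinase that shuts pyruvate dehydrogenase, averaged 50.3 ± 7.57 CPM in CLP and 61.6 ± 6.17 CPM in Sham (log2 fold change -0.29, SE 0.11, edgeR adjusted p = 0.0568). It passed as lower with library totals (-0.60), with no filter on low counts (adjusted p = 0.0197) and without CLP replicate 2 (0.0148). Slc16a3, which encodes the lactate exporter MCT4, stayed near 1 CPM, at 0.713 to 1.19 CPM in CLP and 0.863 to 1.52 CPM in Sham (log2 fold change -0.38, edgeR adjusted p = 0.34). At 13 to 42 reads per library its counting error is large, and its count ratio to Slc16a1 overlapped between the groups (exact permutation p = 0.514). Ldhb, the other main subunit of lactate dehydrogenase, was near absent, at 0.128 to 0.438 CPM in CLP and 0 to 0.109 CPM in Sham, too low for its ratio to Ldha to be read. Slc16a1, which encodes MCT1, held 97.7% ± 0.525 of the sum of Slc16a1 and Slc16a3 per kilobase in CLP and 96.6% ± 1.66 in Sham. Slc16a7, of the same family, is not in that sum and is named after its values were seen. It had 9.42 CPM per kb in CLP and 9.53 in Sham, above Slc16a1 at 8.07 in CLP and 8.51 in Sham.

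Slc16a1 had 43.3, 36.4, 31.6 and 31.6 CPM in CLP and 24.6, 28.4, 31.2 and 66.5 CPM in Sham (log2 fold change -0.08, SE 0.31, edgeR adjusted p = 0.862). Its Sham replicate 4 was above all other libraries, as for Hk1. Without that library Slc16a1 was 0.37 higher on the log2 scale and passed (edgeR adjusted p = 0.0472). Both genes are known to be used by red blood cell precursors, and the erythroid markers summed to 1693 CPM in Sham replicate 4, against 346, 488 and 556 CPM in the other Sham libraries and 1039, 1130, 1306 and 773 CPM in CLP replicates 1 to 4. The CLP libraries had higher erythroid sums than Sham replicates 1 to 3. Single erythroid markers, named after their values were seen, differed in their pattern. Klf1 had 5.57, 4.96, 2.08 and 1.79 CPM in CLP and 2.61, 3.66, 3.5 and 16.2 CPM in Sham, and Hemgn had 29.1, 36.2, 18.1 and 13.4 CPM in CLP and 11.5, 21.3, 22.9 and 118 CPM in Sham. Like Hk1, both were highest in Sham replicate 4 and higher in CLP replicates 1 and 2 than in 3 and 4. Alas2, Hbb-bs and Hbb-bt had another pattern and were highest in CLP replicate 3, at 520, 200 and 35.2 CPM. In Sham replicate 4 they had 171, 74.1 and 17.2 CPM, below every CLP library. The part of erythroid RNA in the Hk1 and Slc16a1 values was not tested. Without Sham replicate 4, 15 of the 32 were higher and 2 lower.

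**Figure D4:**
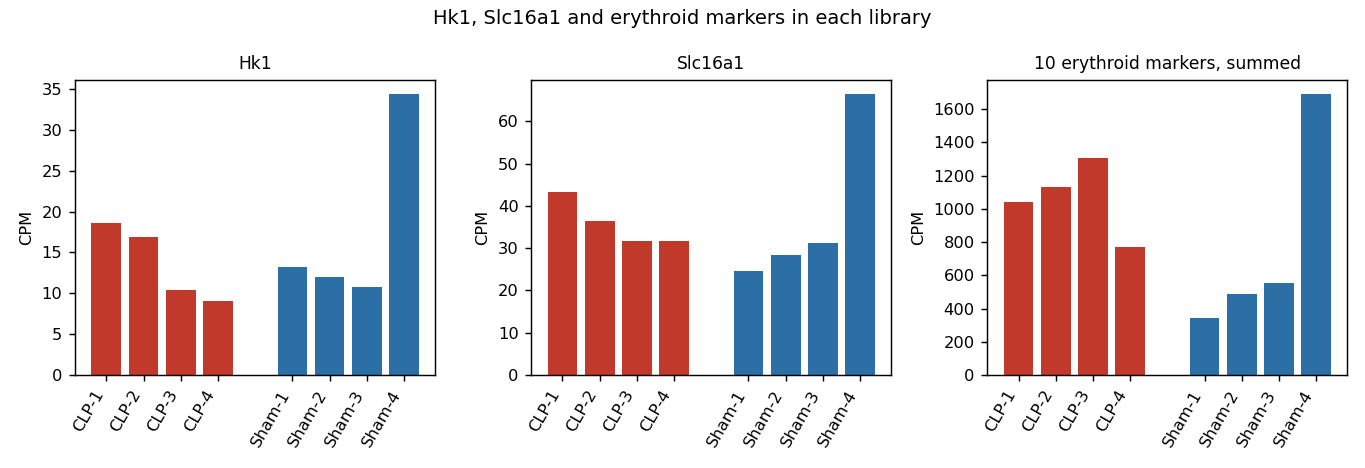
CPM of Hk1 and of Slc16a1 and the summed CPM of 10 erythroid markers in each CLP library (red, left) and each Sham library (blue, right). Sham replicate 4 is the highest library in all 3 panels, at 34.4, 66.5 and 1693 CPM.

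Of the HIF alpha subunits and their hydroxylases, Hif1a and Egln2 rose, Epas1 and Egln1 did not pass, and Egln3 had too few reads to test. Hif1a had 291, 291, 341 and 320 CPM in CLP and 181, 176, 205 and 169 CPM in Sham (log2 fold change 0.77, SE 0.08, edgeR adjusted p = 4.07e-05), with a clear gap between the groups. Epas1, which encodes HIF2alpha, averaged 13.9 ± 2.59 CPM in CLP and 11.8 ± 2.49 CPM in Sham (log2 fold change 0.23, SE 0.18, edgeR adjusted p = 0.333, and -0.08 with library totals). Hif1a had 17.4 to 32.7 counts per count of Epas1 in CLP and 12.8 to 23.6 in Sham, which overlap (exact permutation p = 0.143). Per kilobase Hif1a made up 95.4% ± 1.09 of the pair in CLP and 93.6% ± 1.54 in Sham.

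Egln2 encodes PHD1, an enzyme that marks HIF alpha for destruction, and was the only one of the 3 prolyl hydroxylase genes to pass with TMM scaling. It had 244, 196, 274 and 236 CPM in CLP and 89.6, 94.6, 84.8 and 58.3 CPM in Sham (log2 fold change 1.54, SE 0.15, edgeR adjusted p = 4.01e-05). All 4 CLP libraries were well above the Sham libraries. Egln1, which encodes PHD2, the main oxygen sensor in most cells, averaged 31.8 ± 1.95 CPM in CLP and 36.6 ± 2.48 CPM in Sham (log2 fold change -0.20, SE 0.08, edgeR adjusted p = 0.0708), and passed as lower with library totals (-0.52, adjusted p = 0.000459). Egln3, which encodes PHD3 and is a known HIF target in other cells, had 8, 1, 16 and 3 reads in the CLP libraries and 6, 8, 6 and 7 reads in the Sham libraries. At these counts no difference could be shown, and its ratio to Egln2 counts overlapped between the groups (exact permutation p = 0.0571). Per kilobase Egln2 was 90.3% ± 1.56 of the 3 hydroxylases in CLP and 73.5% ± 3.81 in Sham, and Egln1 9.56% ± 1.66 in CLP and 26.2% ± 3.78 in Sham.

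Of 6 further targets of hypoxia, 5 could be tested, of which 3 rose and 2 did not pass. Ero1a, an oxidase of protein folding in the endoplasmic reticulum, had 36.7, 35.3, 39.0 and 43.9 CPM in CLP and 19.5, 17.5, 17.4 and 18.4 CPM in Sham (log2 fold change 1.09, SE 0.09, edgeR adjusted p = 9.05e-06). Vegfa, the growth factor for blood vessels, was low but separated the groups, with 4.93, 5.52, 3.23 and 3.71 CPM in CLP and 1.92, 1.28, 1.63 and 0.699 CPM in Sham (log2 fold change 1.65, SE 0.31, edgeR adjusted p = 0.00145). It rested on 56 to 108 reads per CLP library and 17 to 53 per Sham library. Bnip3l (NIX), a receptor for the removal of mitochondria, had 123, 134, 168 and 120 CPM in CLP and 92.8, 88.5, 82.6 and 103 CPM in Sham (log2 fold change 0.57, SE 0.11, edgeR adjusted p = 0.0017; when scaled by library totals 0.26, adjusted p = 0.0953). Its relative Bnip3 averaged 4.56 ± 0.635 CPM in CLP and 5.38 ± 0.525 CPM in Sham (log2 fold change -0.24, edgeR adjusted p = 0.283), and passed as lower when scaled by library totals (-0.55, adjusted p = 0.0192). Bnip3 had 0.0263 to 0.0393 counts per count of Bnip3l in CLP and 0.0551 to 0.0641 in Sham, a difference of -0.81 on the log2 scale (exact two-sided permutation p = 0.0286, adjusted 0.0571). P4ha1, a collagen prolyl hydroxylase, averaged 135 ± 11.7 CPM in CLP and 123 ± 10.4 CPM in Sham (log2 fold change 0.13, edgeR adjusted p = 0.238, and -0.19 with library totals). Ankrd37, a HIF target in other cells, had 0, 0, 3 and 1 reads in CLP and 5, 7, 5 and 1 reads in Sham and was not tested. Bnip3l is also used by maturing red blood cells, and the erythroid sums given above were higher in the CLP libraries than in Sham replicates 1 to 3. Sham replicate 4 had the highest erythroid sum, 1693 CPM, while its Bnip3l level of 103 CPM lay below all CLP libraries. The part of erythroid RNA in the Bnip3l values was not tested.

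Levels can be set against each other only per kilobase of exon, a rough scale since merged exons can exceed the transcripts present. On that scale Aldoa was the most abundant of the 34 in both groups, at 145 CPM per kb in CLP and 110 CPM per kb in Sham. Egln2 was next in CLP at 84.9 CPM per kb, close to Ldha at 84.7, whereas in Sham Ldha had 61.9 and Egln2 29.2 CPM per kb. Pfkfb3 had 38.4 CPM per kb in CLP and 11.6 in Sham, and Hk2 32.5 in CLP and 8.26 in Sham.

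Genes that neighbour these pathways were counted in 4 further lists. Of 30 other glycolysis and sugar transport genes 15 could be tested, 3 rose and 1 fell, with a median log2 fold change of -0.07. That is 20% higher and 6.67% lower, against 19.8% and 23.5% of all genes tested. Bpgm, which makes a bisphosphoglycerate that tunes oxygen release in red blood cells, had 151, 151, 316 and 149 CPM in CLP and 55.8, 58.2, 47.6 and 60 CPM in Sham (log2 fold change 1.79, SE 0.26, edgeR adjusted p = 0.000789). CLP replicate 3 was the highest and all CLP libraries were above the Sham libraries. The erythroid markers Alas2, with 255, 288, 520 and 255 CPM in CLP and 86.2, 97.3, 90.2 and 171 CPM in Sham, and Hbb-bs, with 106, 121, 200 and 126 CPM in CLP and 31.2, 47.6, 34 and 74.1 CPM in Sham, had the same highest library and the same separation, and are named after their values were seen. Their part in the Bpgm values was not tested. Adpgk, an ADP-dependent glucokinase and the gene of the list with the highest CPM before any allowance for length, averaged 198 ± 44.8 CPM in CLP and 135 ± 15.6 CPM in Sham (log2 fold change 0.55, SE 0.15, edgeR adjusted p = 0.0135), and did not pass when scaled by library totals (0.24, adjusted p = 0.197). Tigar, a phosphatase that lowers the activator of phosphofructokinase, averaged 8.13 ± 2.66 CPM in CLP and 12.2 ± 0.485 CPM in Sham (log2 fold change -0.59, SE 0.20, edgeR adjusted p = 0.0349). The list's count of lower genes was 0 when any of CLP replicates 1 and 4 or Sham replicates 2, 3 and 4 was left out. Eno2, the enolase of neurons, named after its values were seen since it is the third that rose, averaged 8.43 ± 3.14 CPM in CLP and 1.16 ± 0.46 CPM in Sham (log2 fold change 2.87, SE 0.36, edgeR adjusted p = 0.000117).

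Of 22 pentose phosphate and glycogen genes 20 could be tested, with 3 higher and 3 lower and a median log2 fold change of 0.09. That is 15% in each direction, below the 19.8% higher and 23.5% lower of all genes tested. H6pd, the entry enzyme of the pentose pathway inside the endoplasmic reticulum, averaged 45.6 ± 9.83 CPM in CLP and 81.4 ± 6.85 CPM in Sham (log2 fold change -0.84, SE 0.14, edgeR adjusted p = 0.000667). Rpia, the ribose phosphate isomerase, had a log2 fold change of -0.57 (SE 0.12, edgeR adjusted p = 0.0029), and Pgm2, a phosphoglucomutase, one of 0.44 (SE 0.09, edgeR adjusted p = 0.00182), which did not pass when scaled by library totals (0.13). Tkt, transketolase and the gene of the list with the highest CPM, averaged 327 ± 40.8 CPM in CLP and 273 ± 17.4 CPM in Sham (log2 fold change 0.26, edgeR adjusted p = 0.0474, and -0.06 with library totals). The count of higher genes was 5 without Sham replicate 1, and 1 when any of CLP replicates 2 and 4 or Sham replicates 3 and 4 was left out. Scaled by library totals, 0 of the 20 were higher and 13 lower.

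All 32 genes of pyruvate oxidation and the citric acid cycle could be tested, with 10 higher, 3 lower and a median log2 fold change of 0.11. That is 31.2% higher and 9.38% lower, against 19.8% and 23.5% of all genes tested. When scaled by library totals 1 was higher and 14 lower. The count of higher genes was 4 without CLP replicate 1 or 4 and 6 without Sham replicate 2. Both phosphatases that switch pyruvate dehydrogenase back on fell, Pdp2 with 18.3 ± 3.26 CPM in CLP and 30.0 ± 1.67 CPM in Sham (log2 fold change -0.71, SE 0.12, edgeR adjusted p = 0.000806) and Pdp1 with 5.49 ± 1.08 CPM in CLP and 8.88 ± 0.623 CPM in Sham (log2 fold change -0.69, SE 0.17, edgeR adjusted p = 0.00581). Pdk3, a kinase that switches it off, averaged 46.9 ± 4.37 CPM in CLP and 29.0 ± 1.39 CPM in Sham (log2 fold change 0.69, SE 0.09, edgeR adjusted p = 9.34e-05). Ogdh, a subunit of the oxoglutarate dehydrogenase complex and the gene of the list with the highest CPM, averaged 358 ± 22.0 CPM in CLP and 301 ± 16.2 CPM in Sham (log2 fold change 0.25, edgeR adjusted p = 0.0162, and -0.07 with library totals, where it did not pass). Pdk4, the remaining gene that fell and named after its values were seen, averaged 1.83 ± 0.585 CPM in CLP and 4.34 ± 1.30 CPM in Sham (log2 fold change -1.24, SE 0.30, edgeR adjusted p = 0.00638).

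Of 36 HIF partners and other hypoxia genes 29 could be tested, with 8 higher, 6 lower and a median log2 fold change of 0.00. That is 27.6% higher and 20.7% lower, near the 19.8% and 23.5% of all genes tested. When scaled by library totals 5 were higher and 12 lower. Adm, which encodes the vasodilator peptide adrenomedullin, had 32.9, 24.4, 69.7 and 36.4 CPM in CLP and 1.74, 2.14, 1.98 and 0.781 CPM in Sham (log2 fold change 4.63, SE 0.43, edgeR adjusted p = 6.49e-05). Ndrg1, a stress-response gene, averaged 9.86 ± 1.36 CPM in CLP and 3.35 ± 0.561 CPM in Sham (log2 fold change 1.55, SE 0.18, edgeR adjusted p = 5.28e-05). Ddit4 (REDD1), a hypoxia target that restrains mTORC1 and the gene of the list with the highest CPM, moved opposite to them, with 139, 195, 146 and 121 CPM in CLP and 1120, 912, 923 and 1045 CPM in Sham (log2 fold change -2.73, SE 0.14). The other 11 genes of the list that passed are named after their values were seen. Vhl, the protein that destroys hydroxylated HIF alpha, had a log2 fold change of -0.74 (SE 0.17, edgeR adjusted p = 0.00548), and Hif1an, the asparagine hydroxylase that blocks HIF activity, one of -0.47 (SE 0.09, edgeR adjusted p = 0.00106). Arnt, the partner of HIF alpha on DNA, averaged 153 ± 13 CPM in CLP and 117 ± 6.89 CPM in Sham (log2 fold change 0.39, SE 0.08, edgeR adjusted p = 0.00223) and did not pass with library totals. Hif3a, an alpha subunit that can restrain HIF, had 0.705, 1.38, 0.987 and 0.331 CPM in CLP and 7.49, 7.82, 7.22 and 3.58 CPM in Sham (log2 fold change -2.90, SE 0.38, edgeR adjusted p = 0.000141). Ep300, a coactivator of HIF, had a log2 fold change of -0.45 (SE 0.07, edgeR adjusted p = 0.000498). Eloc and Elob, the elongins that work with VHL, had log2 fold changes of 0.56 (edgeR adjusted p = 0.00015) and 0.30 (edgeR adjusted p = 0.0439), with Elob at -0.02 when scaled by library totals. The remaining 4 were Angptl4 (1.54), Mxi1 (0.68) and Os9 (0.32), which rose, and Insig2 (-0.62), which fell, with Os9 at 0.00 when scaled by library totals.

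**Figure D5:**
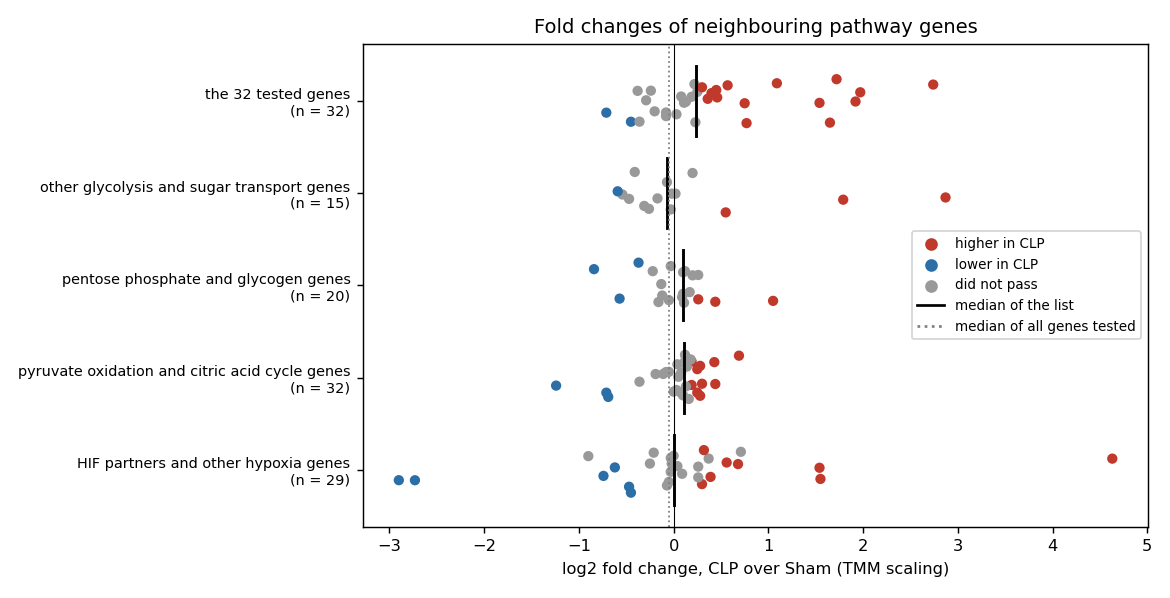
Log2 fold change (CLP over Sham, TMM scaling) of each tested gene in the 32 described here and in 4 lists of neighbouring pathways, with the list median as a black bar and the median of all genes tested as a dotted line; red rose, blue fell, grey did not pass. The median is 0.24 for the 32 and -0.07 to 0.11 for the other lists, whose own highest and lowest values, 4.63 for Adm and -2.90 for Hif3a, are more extreme.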

How the data were processed

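RNA was measured in 8 libraries of sorted mouse red pulp macrophages, 4 CLP and 4 Sham, grouped by their titles. The authors deposited 1 table of raw counts per Ensembl gene. Per the labels' protocols the libraries were stranded TruSeq libraries sequenced on an Element AVITI. FastQC, STAR 2.7.10b, featureCounts, DESeq2 and the build mm39 are named without roles in the submitters' processing notes, and the sources used here give neither the annotation release nor the strand setting. Reads of overlapping genes on opposite strands therefore cannot be told apart with certainty.

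Of 55414 rows, 52081 were given symbols from GENCODE mouse release 21, which also gave exon lengths (all annotated exons of a gene merged). Ero1a was matched through its older symbol, and a second row for Aldoa, with at most 3 reads per library, was not tested. Genes passing filterByExpr (14004) entered edgeR 4.0.16 (R 4.3.3) with TMM scaling, a robust quasi-likelihood fit of the 2 groups with no covariate and Benjamini-Hochberg adjustment over all genes at 0.05. The TMM factors were 0.873 to 0.915 in CLP and 1.08 to 1.15 in Sham. Log2 fold changes are CLP minus Sham. Each library was kept as a replicate. No 2 libraries of a group agreed within sampling noise (chi-square over its degrees of freedom was at least 9.25), which does not show that they came from separate mice. Count ratios within a library, with 0.5 added to both counts, were compared by an exact permutation test over 70 assignments. The edgeR step was tested on simulated data.

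Alternatives were DESeq2 size factors, library totals, no filter on low counts, DESeq2 1.42.0, a replicate block, 1 surrogate variable (sva 3.50.0), fits without each library and, for ratios, 5 added counts. The 34 genes and the neighbouring and marker lists were chosen with earlier results of these data known. Of each neighbouring list the text names the 3 genes with the largest change among those past the threshold at a mean of at least 5 CPM, and the gene with the highest mean CPM, and says where it names others. Promoter windows came from RefSeq on GRCm38.p6. Figures were drawn with matplotlib 3.10.9 in Python 3.11.15.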

Additional observations from a re-analysis of the deposited data

Results flagged for a closer look

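Within a group of 4 libraries, a library was singled out where its gap to the nearest other library, divided by the range of the group, was above 0.829 (Dixon's 95% critical value), which chance gives in about 1 in 20 groups. Over the 68 groups screened (2 per gene) chance alone would give about 3.4, and 4 were found. Pfkfb4 had 30.9 CPM in CLP replicate 3 against 20.8, 20.9 and 21 CPM in the other CLP libraries (gap over range 0.977), and still lay below all Sham libraries. Hk1 had 34.4 CPM in Sham replicate 4 against 10.8, 12.0 and 13.2 CPM in the other Sham libraries (0.898). Slc16a1 had 66.5 CPM in the same library against 24.6, 28.4 and 31.2 CPM (0.841). Aldoa had 376 CPM in Sham replicate 1 against 297, 299 and 304 CPM (0.906). Without Sham replicate 1 Aldoa kept its call.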

How the results depend on the processing

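Scaling mattered most. With library totals 1286 of all genes were higher and 6435 lower, 9 and 8 of the 32 tested genes, 6 lower among other glycolysis genes, 0 higher and 13 lower among pentose and glycogen genes, 1 and 14 among pyruvate and citric acid cycle genes, and 5 and 12 among HIF partners and other hypoxia genes. The log2 fold change then turned to -0.13 for Pfkm, -0.20 for Gpi1, -0.28 for Tpi1, -0.07 for Gapdh, -0.10 for Pgam1, -0.24 for Eno1, -0.02 for Pkm, -0.08 for Epas1 and -0.19 for P4ha1. With each library left out in turn, Pfkm lay between -0.08 (without CLP replicate 1) and 0.38, Tpi1 between -0.02 (without CLP replicate 1) and 0.14, Hk1 between -0.54 and 0.21 and Slc16a1 between -0.20 and 0.37, both highest without Sham replicate 4. With 1 surrogate variable Slc16a1 was 0.15. Other glycolysis genes counted 2 lower with no filter and with DESeq2, and citric acid cycle genes 6 higher with no filter. The cause of these shifts was not tested.

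Leaving out each library in turn gave 13 to 16 higher and 1 to 3 lower of the 32, 0 to 2 lower among other glycolysis genes, 1 to 5 higher among pentose and glycogen genes and 4 to 12 higher among citric acid cycle genes. With 5 counts added in place of 0.5, the Egln3 over Egln2 ratio differed by -1.25 and then passed before adjustment. Egln3 had only 1 to 16 reads per library, beside which 5 added counts are large. That pass therefore cannot be read as a change of Egln3.

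The labels do not say whether the replicate numbers pair the libraries. Deviations from the group means of same-numbered CLP and Sham libraries correlated by 0.0743, -0.0377, 0.261 and -0.192. Not every library correlated best with its own number, though the value of 0.261, for replicate 3, was the highest of all CLP and Sham combinations. With 4 libraries per group these correlations cannot decide whether the libraries were paired. With the replicate number as a block, 16 of the 32 were higher and 3 lower (2799 and 3290 of all genes), Slc16a1 was 0.03, other glycolysis genes counted 2 lower, and Gapdh and Pdk1 passed (adjusted p = 0.019 and 0.029). Genes under about 1 CPM rest on few reads.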
